A study of Mus musculus with 23 samples.

Results

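The proteasome genes described here were 39 genes, chosen by name from the 55573 genes in the table of counts from the quadriceps, a thigh muscle, of mice. They encode the 7 alpha and 7 beta subunits of the 20S core (Psma1 to Psma7 and Psmb1 to Psmb7). They also encode 9 subunits of the 19S base (Psmc1 to Psmc6, Psmd1, Psmd2 and Psmd4). Another 8 encode subunits of the 19S lid (Psmd3, Psmd6, Psmd7, Psmd8, Psmd11, Psmd12, Psmd13 and Psmd14). The rest encode 3 chaperones of 19S assembly (Psmd5, Psmd9 and Psmd10), and 4 activators and 1 inhibitor of the core (Psme1 to Psme4 and Psmf1). All 39 genes were found in the table, and all 39 passed the filter on low counts.

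RNA was sequenced from 23 C57BL/6J mice aged 8 to 10 weeks. Corticosterone is the main glucocorticoid of mice. For 14 days, 6 male and 5 female mice carried an implanted pellet that held 50 mg of corticosterone with 50 mg of cholesterol. The pellet of the 6 male and 6 female vehicle-treated mice held 100 mg of cholesterol, so that every group received cholesterol. All mice were fasted for 5 h before tissue was taken. Mice are named by sex and number, from F1 to F11 and from M1 to M12.

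The proteasome degrades proteins that carry a chain of ubiquitin. Its 20S core is a barrel of stacked rings, in which the alpha subunits form the gate and the beta subunits hold the cutting sites, and its 19S cap binds the ubiquitin chain, removes it, and unfolds the substrate with a ring of ATPases in the base. In skeletal muscle this pathway breaks down contractile proteins during atrophy, and glucocorticoids are a classical trigger of muscle atrophy.

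Counts on genes were similar between mice, at 20904150 to 21984477 read pairs each. Levels are given as CPM, the counts of a gene scaled to a common library size after normalization for composition. Differences are given as log2 fold changes with their standard error (SE). A gene is said to have risen or fallen where it passed edgeR's quasi-likelihood test at a Benjamini-Hochberg adjusted p under 0.01, over 13049 tested genes. All 8 skeletal muscle fiber markers were detected in every group. Some mice carried transcripts of other tissues. The summed level of 7 hepatocyte markers was 2455 CPM in F10, 2478 CPM in M8, 1481 CPM in M9, 1460 CPM in M12 and 1117 CPM in F6, and at most 311 CPM in the other mice. The summed level of 7 adipocyte markers reached 6899 CPM in F6, 3633 CPM in F2 and 3272 CPM in F10. Slow fiber markers differed widely between mice of the same group. The 7 summed to 5806 CPM in F3, 5017 CPM in M5, 3873 CPM in M3, 3524 CPM in F5 and 3178 CPM in F2. They summed to 2304 CPM in M6, 1813 CPM in F8, 1435 CPM in F10 and 1297 CPM in M10, and at most 288 CPM in the other mice. Among corticosterone-treated males M8 had the highest level of 25 of the 39 genes and M12 the lowest of 20. Among corticosterone-treated females F6 and F10 each had the lowest level of 15. In vehicle-treated females F3 had the lowest level of 22 genes and F9 the highest of 24, and in vehicle-treated males M11 had the lowest of 22.

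In male mice, 5 proteasome genes rose with corticosterone (Psmc5, Psmd2, Psmd4, Psmd8 and Psme3) and 5 fell (Psma5, Psmb2, Psmd14, Psme1 and Psme2). These counts are near the background, since 13.2% of all tested genes rose and 13.1% fell in males. The median log2 fold change of the 39 genes was -0.019, beside -0.021 over all tested genes. In female mice, Psmd8 rose, and Psma5, Psmb2, Psmc4, Psmd6 and Psme4 fell, where 7.4% of all tested genes rose and 6% fell. The fold changes of 31 of the 39 genes were below 0 in females, with a median of -0.23, beside 0.035 over all tested genes, and most of them did not pass the test. Psmd8 was the single gene that rose in both sexes, and Psma5 and Psmb2 fell in both. The test of the interaction, the difference between the male and the female fold change, passed for 0 of the 39 genes, beside 0.69% of all tested genes. Of the 39, 13 had an unadjusted p under 0.05, beside 32.1% of all tested genes. In these tissue samples, fewer cells of a type and less RNA per cell cannot be told apart.

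**Figure D1:**
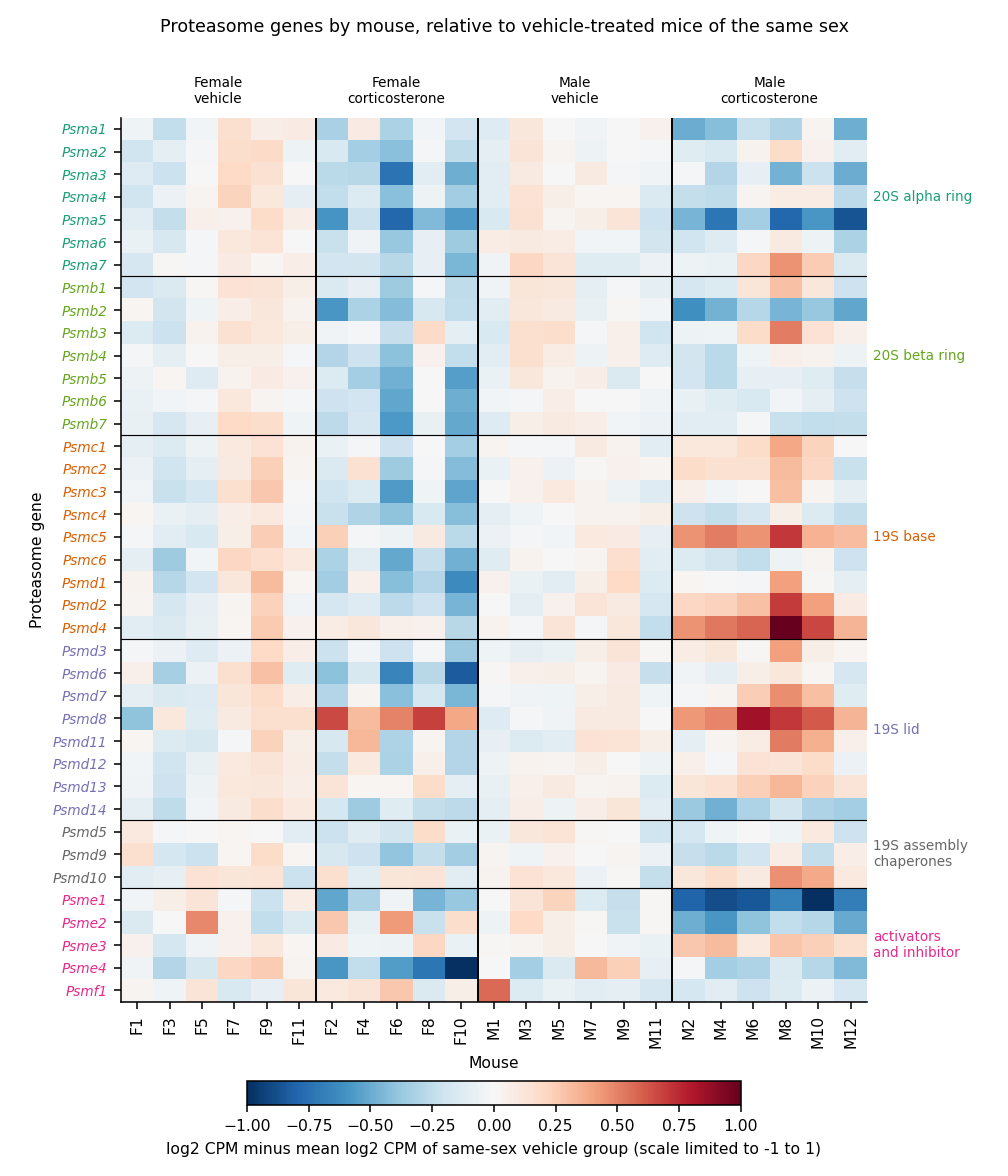
Each cell shows 1 gene in 1 mouse as log2 CPM minus the mean log2 CPM of the vehicle-treated mice of the same sex, with the 39 genes in rows by subcomplex and the 23 mice in columns by group; red is higher and blue lower, and the color scale ends at -1 and 1. Psmd8 is red in all treated mice, Psma5 and Psmb2 are blue in all of them, and the 19S base rows Psmc5, Psmd2 and Psmd4 are red in treated males.

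**Figure D2:**
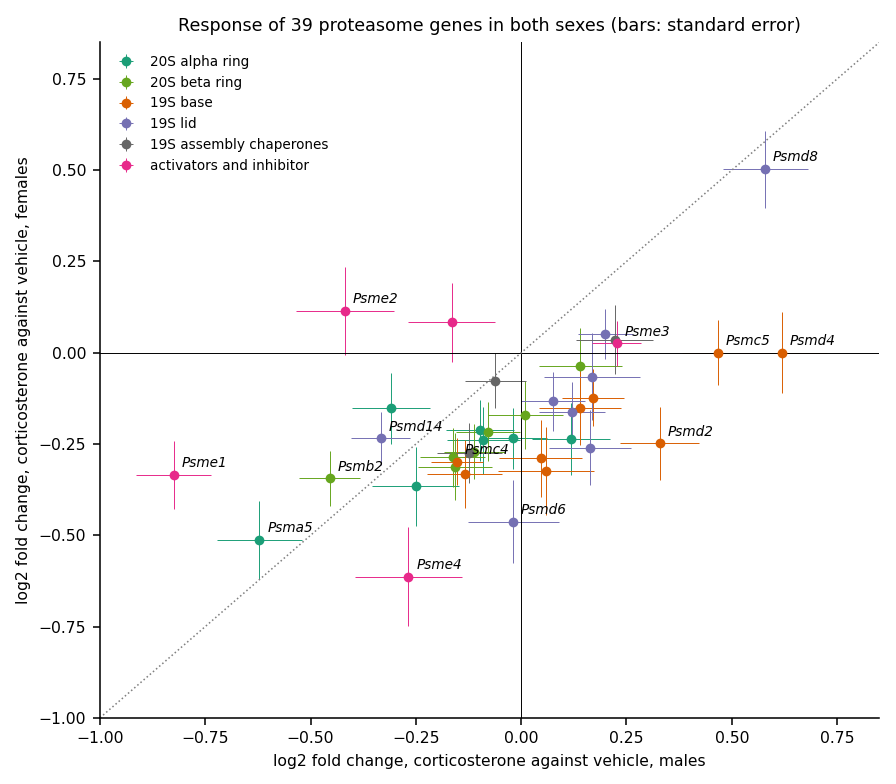
Points show the log2 fold change with corticosterone of each of the 39 genes in males (horizontal axis) and females (vertical axis), colored by subcomplex, with bars of 1 SE in each direction, named where the gene rose or fell in either sex, and a dotted line of equal change. Most points lie below the horizontal zero line, all 14 genes of the 20S core among them, and Psmd8 lies at 0.58 in males and 0.50 in females.

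Per kilobase of exon, the subunits of the particle were expressed at comparable levels and its assembly chaperones at much lower ones. Over the vehicle-treated mice, CPM per kilobase (RPKM) had a median of 40.7 over the alpha subunits, 64.6 over the beta subunits, 51.1 over the 19S base, 33.4 over the 19S lid, 19.5 over the activators and inhibitor and 3.35 over the assembly chaperones. The highest level per kilobase was that of Psma6, an alpha subunit, at 109 ± 8.38 RPKM (SD, n = 6) in vehicle-treated females, 94.4 ± 10.2 (n = 5) in corticosterone-treated females, 116 ± 8.18 (n = 6) in vehicle-treated males and 109 ± 10.7 (n = 6) in corticosterone-treated males. The lowest was that of Psmf1, which encodes the inhibitor PI31, at 2.50 ± 0.198, 2.65 ± 0.272, 2.87 ± 0.646 and 2.56 ± 0.0955 RPKM in the same order of groups. Neither gene passed the test in any comparison. Lengths are those of all annotated exons joined, so that the order of genes would differ with the transcripts in use.

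Within the alpha ring of the 20S core, Psma5 fell in both sexes. Psma5 counted 53.9 to 71.97 CPM (median 65.6) in vehicle-treated females and 42.2, 54.8, 36.9, 46.8 and 42.96 CPM in the 5 treated females. It counted 59.6 to 76.4 CPM (median 70.9) in vehicle-treated males against 37.8 to 54.4 CPM (median 43.8) in treated males. In males every treated mouse lay below every vehicle-treated mouse, and in females only F4 lay within the vehicle range. The log2 fold change was -0.62 ± 0.10, adjusted p = 5.97e-05 in males and -0.51 ± 0.11, adjusted p = 0.0015 in females. Psma7 passed in neither sex (0.12 in males and -0.24 in females). It stood at 66.6 to 79.2 CPM (median 75.8), 65.5, 65.8, 61.7, 70.8 and 54.6 CPM, 76.9 to 96.6 CPM (median 81.1) and 75.7 to 115 CPM (median 88.9) in the order vehicle-treated females, treated females, vehicle-treated males and treated males. All treated males lay above all treated females, and the difference between them passed the test (0.52 ± 0.10, adjusted p = 0.00055). The other 5 alpha genes had log2 fold changes from -0.31 for Psma1 to -0.019 for Psma2 in males and from -0.37 for Psma3 to -0.15 for Psma1 in females, and none of them passed.

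The beta ring carries the protease activities, and its member Psmb2 fell in both sexes. Psmb2, a beta subunit without a cutting site of its own, was at 58.1 to 71.2 CPM (median 67.1) in vehicle-treated females and at 44.1, 52.8, 48.7, 58.9 and 55.7 CPM in treated females. It was at 71.1 to 82.95 CPM (median 76.1) in vehicle-treated males and at 49.97 to 62.9 CPM (median 55.3) in treated males. Every treated male lay below every vehicle-treated male, while among females only F8 reached into the vehicle range. Its log2 fold change was -0.45 ± 0.072, adjusted p = 4.51e-05 in males and -0.34 ± 0.076, adjusted p = 0.00232 in females. The 3 catalytic subunits Psmb5, Psmb6 and Psmb7, which cut after hydrophobic, acidic and basic residues, did not pass in either sex. Psmb5 was at 53.7 to 62.01 CPM (median 59.8), 53.4, 46.5, 42.1, 58.9 and 40.02 CPM, 51.9 to 61.9 CPM (median 57.9) and 47.4 to 54.2 CPM (median 51.5) in the order of groups used for Psma7. Psmb6 was at 142 to 159.6 CPM (median 147), 129, 129.8, 104, 148 and 106 CPM, 142 to 152 CPM (median 144) and 126 to 142 CPM (median 135). Psmb7 was at 260.4 to 336 CPM (median 282), 245, 261, 197, 279 and 206 CPM, 279.5 to 325 CPM (median 309.6) and 258 to 301 CPM (median 273). All 3 overlapped between treated and vehicle-treated mice of both sexes. In females their log2 fold changes were -0.29 ± 0.081, adjusted p = 0.0129 for Psmb5, -0.27 ± 0.076, adjusted p = 0.0116 for Psmb6 and -0.31 ± 0.093, adjusted p = 0.0165 for Psmb7. In males they were -0.16, -0.11 and -0.16. The female result depended on the tool: DESeq2 called all 3 lower in females (adjusted p = 0.00406, 0.00174 and 0.00396). With limma-voom, Psmb6 (adjusted p = 0.00226) and Psmb7 (adjusted p = 0.0065) were lower in females. Psmb1, Psmb3 and Psmb4 ranged from -0.078 to 0.14 in males and from -0.22 to -0.036 in females. Of the whole 20S core, 3 of 14 fold changes were above 0 in males (median -0.10) and 0 of 14 in females (median -0.24), beside 48.1% and 54.7% of all tested genes.

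The 19S base holds the ATPase ring and the large scaffold and receptor subunits. Of the 9 base genes listed here, 3 rose in male mice, beside 13.2% of all tested genes. Psmd4, the ubiquitin receptor Rpn10, was at 124 to 161 CPM (median 148) in vehicle-treated males and at 186 to 307 CPM (median 216) in treated males, which did not overlap. In females it was at 125 to 166 CPM (median 136) with vehicle and at 146, 149.7, 144, 142 and 115 CPM with corticosterone, where the groups overlapped. The log2 fold change was 0.62 ± 0.11, adjusted p = 0.000107 in males, a 1.54-fold level, and 0.00058 ± 0.11, adjusted p = 0.998 in females. Their difference of 0.62 had an adjusted p of 0.0192. Psmc5, an ATPase of the ring, was at 104 to 118 CPM (median 109) in vehicle-treated and 137 to 181 CPM (median 151) in treated males, again without overlap. In females it was at 106 to 139 CPM (median 115) and 139, 116, 113, 125 and 97.3 CPM. It rose in males (0.47 ± 0.085, adjusted p = 0.000192) and did not pass in females (0.00049 ± 0.089, adjusted p = 0.998). The difference was 0.47 (adjusted p = 0.023).

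Psmd2, the scaffold subunit Rpn1, was at 247 to 303 CPM (median 281) in vehicle-treated and 293 to 448 CPM (median 332) in treated males. It was at 235 to 312 CPM (median 265) and 236, 242, 221, 230.2 and 192 CPM in females. The treated males overlapped the vehicle-treated ones through M12, and all 6 lay above the vehicle mean, while all 5 treated females lay below theirs. It rose in males (0.33 ± 0.095, adjusted p = 0.00856) and did not pass in females (-0.25 ± 0.10, adjusted p = 0.0684). The difference of 0.58 had an adjusted p of 0.0169. The male call is close to the threshold: it was lost in 14 of the 23 fits that each left out 1 mouse and without F10 and M8 together. Over all other fits its adjusted p was 0.00141 to 0.029. The interaction of Psmd2 passed when F8 or F3 was left out, and those of Psmc5, Psmd2, Psmd4 and Psme1 passed with DESeq2 (adjusted p = 0.00311, 0.000872, 0.00202 and 0.00818).

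Psmc4, another ATPase of the base, was the base gene that fell in females, from 78.6 to 90.1 CPM (median 84.3) with vehicle to 72.1, 68.5, 63.8, 75.9 and 62.7 CPM with corticosterone. All treated females lay below all vehicle-treated females (-0.30 ± 0.065, adjusted p = 0.00209). In males it was at 80.4 to 89.04 CPM (median 86.8) and 72.5 to 89.3 CPM (median 75.1). There M8 lay above and the other 5 treated mice below all vehicle-treated ones. It did not pass (-0.15 ± 0.062, adjusted p = 0.053). The remaining base genes Psmc1, Psmc2, Psmc3, Psmc6 and Psmd1 passed in neither sex, with log2 fold changes from -0.13 for Psmc6 to 0.17 for Psmc1 in males and from -0.33 to -0.12 for the same genes in females.

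In the 19S lid, which carries the deubiquitinating enzyme, Psmd8 rose in both sexes and also differed between them. Psmd8, the lid subunit Rpn12, was at 91 to 135 CPM (median 129) in vehicle-treated females and at 190.1, 149.7, 169.9, 193 and 157 CPM in treated females. It was at 220.3 to 256 CPM (median 239) in vehicle-treated males and at 305 to 431 CPM (median 353) in treated males. The 4 groups followed each other in this order without any overlap. The log2 fold change with corticosterone was 0.58 ± 0.10, adjusted p = 0.00012 in males and 0.50 ± 0.11, adjusted p = 0.00158 in females, and the difference of 0.077 did not pass (adjusted p = 0.739). Fitted on the females alone, the female rise did not pass (adjusted p = 0.0209).

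Psmd14, the deubiquitinating enzyme Rpn11, fell in males from 52.4 to 61.7 CPM (median 57.1) to 40.6 to 49.9 CPM (median 45.3), with no overlap (-0.33 ± 0.070, adjusted p = 0.000687). In females it was at 45.1 to 60.8 CPM (median 55) and 47.5, 42.1, 49.5, 45.6 and 44.9 CPM. All treated females lay below the vehicle mean, and it did not pass (-0.23 ± 0.073, adjusted p = 0.0213). Psmd6 (Rpn7) fell in females, from 118 to 182 CPM (median 148) to 111, 132, 93.6, 122 and 82.9 CPM (-0.46 ± 0.11, adjusted p = 0.00501), with F6, F10 and F2 below the vehicle range. In males it was at 122 to 151 CPM (median 147) and 127 to 154 CPM (median 142), and the fold change was -0.019. The female fall of Psmd6 was lost without any 1 of F1, F2, F6, F7, F9 or F10. The other 5 lid genes passed in neither sex and ranged from 0.075 for Psmd12 to 0.20 for Psmd13 in males and from -0.26 for Psmd7 to 0.052 for Psmd13 in females. Together, 13 of the 17 base and lid genes had fold changes above 0 in males (median 0.14) and 4 of 17 in females (median -0.16). Of all tested genes, 48.1% were above 0 in males and 54.7% in females.

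**Figure D3:**
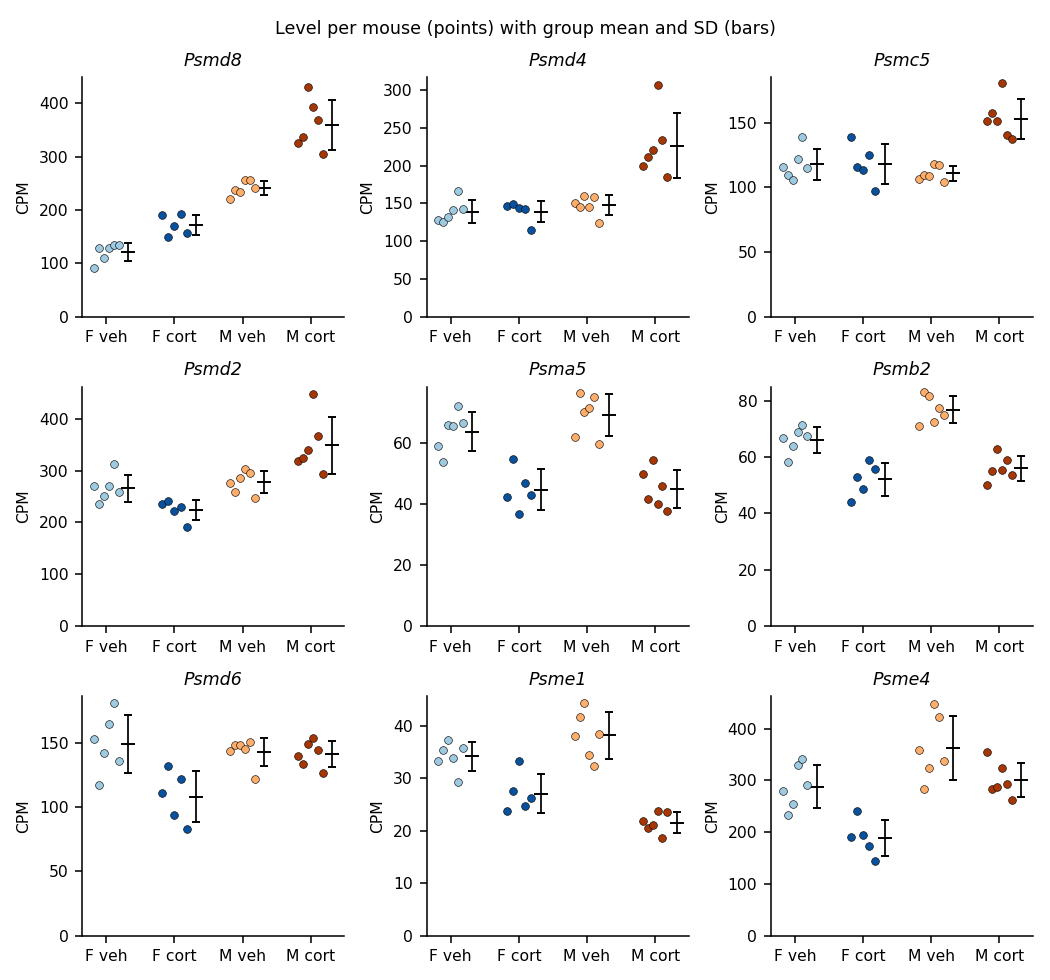
Points show the CPM of 9 genes in each mouse of the 4 groups (F, female; M, male; veh, vehicle; cort, corticosterone), and bars show the group mean and SD with each axis starting at 0. Psmd8 rises in steps over the 4 groups, from 91 CPM in its lowest mouse to 431 CPM in its highest, Psmd4 and Psmc5 stand apart in treated males, and Psma5, Psmb2 and Psme1 are lower in treated mice.

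The 3 assembly chaperones, which help to build the base and leave the finished particle, did not pass in any comparison. Psmd10 (gankyrin), the lowest of the 39 genes in CPM, was at 9.53 to 12.2 CPM (median 11.2), 12.4, 10.2, 12, 12.1 and 10.3 CPM, 9.55 to 12.5 CPM (median 11.4) and 11.95 to 15.5 CPM (median 12.4) over the 4 groups. Fold changes of the chaperones ran from -0.12 for Psmd9 to 0.22 for Psmd10 in males and from -0.27 to 0.036 for the same genes in females.

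Of the activators, which open the gate of the core in place of the 19S cap, the subunits of PA28 alpha and beta fell in males, PA28 gamma rose in males, and PA200 fell in females. Psme1 (PA28 alpha) was at 32.3 to 44.3 CPM (median 38.2) in vehicle-treated and at 18.6 to 23.7 CPM (median 21.4) in treated males, with no overlap. This was the largest change among the 39 genes in males (-0.82 ± 0.090, adjusted p = 5.56e-07), a 0.565-fold level. In females Psme1 was at 29.3 to 37.2 CPM (median 34.6) and 23.7, 27.5, 33.3, 24.7 and 26.2 CPM, where only F6 lay within the vehicle range, and it missed the threshold (-0.33 ± 0.093, adjusted p = 0.0117). Psme2 (PA28 beta) fell in males from 29.04 to 38.9 CPM (median 34.2) to 22.7 to 28.6 CPM (median 24.95), without overlap (-0.42 ± 0.12, adjusted p = 0.00659). It was at 28.9 to 47.8 CPM (median 32.6) and 41.2, 32.5, 46.03, 29.3 and 38.6 CPM in females (0.11 ± 0.12, adjusted p = 0.514). Leaving out any 1 of 8 males ended the male call of Psme2. The differences between the sexes were -0.49 for Psme1 (adjusted p = 0.0226) and -0.53 for Psme2 (adjusted p = 0.0412). A near-identical copy of Psme2, Psme2b, had 12 to 33 counts per mouse, so reads shared with it make the level of Psme2 uncertain.

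Psme3 (PA28 gamma), a nuclear activator, was at 60.7 to 66.3 CPM (median 63.8) in vehicle-treated males and 68.1 to 79.1 CPM (median 75.6) in treated males, with no overlap (0.23 ± 0.058, adjusted p = 0.00367). It was at 55.2 to 66.7 CPM (median 63.5) and 65.8, 60.2, 60.1, 71.7 and 59.4 CPM in females and did not pass there (0.026 ± 0.061, adjusted p = 0.79). Without M11 or without M4 the male rise of Psme3 was lost. Psme4 (PA200) was at 233 to 340.2 CPM (median 285) in vehicle-treated females and 190.5, 240.4, 194, 173 and 143 CPM in treated females. Only F4 lay within the range of the vehicle-treated females (-0.61 ± 0.13, adjusted p = 0.0023). In males Psme4 was at 283 to 447 CPM (median 348) and 263 to 354 CPM (median 290.3), which overlapped, and it did not pass (-0.27 ± 0.13, adjusted p = 0.0992). Psmf1 was at 14.4 to 17.6 CPM (median 16), 17.2, 17.5, 19.4, 14.5 and 16.7 CPM, 16.2 to 26.9 CPM (median 16.97) and 15.8 to 17.5 CPM (median 16.4) over the 4 groups, and 1 vehicle-treated male, M1, stood alone at the top of its group.

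The falls in females were lost in some of the other fits, and adipocyte transcripts varied beside them. Fitted on the 11 females alone, 0 of the 39 genes passed in either direction. Summed adipocyte markers reached 3633 CPM in F2, 1091 CPM in F4, 6899 CPM in F6, 270.1 CPM in F8 and 3272 CPM in F10, beside 282 to 2595 CPM in vehicle-treated females. Of the 7 markers, 1 rose in females, and no marker was at 0 in any group. With the adipocyte marker score as a covariate, Psma5, Psmb2, Psmc4, Psmd6 and Psme4 no longer passed and Psme1 did (-0.42, adjusted p = 0.00647). The median of the 39 female fold changes was then -0.19, and DESeq2 called 13 of the 39 lower in females, beside 8.63% of all genes it tested.

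Between vehicle-treated males and females, 1 of the 39 genes passed the test, Psmd8, which was higher in males, and 0 were lower. Both groups had carried a cholesterol pellet for 14 days, so the comparison is of the sexes without corticosterone, not before treatment. Sex cannot be told apart from the batch of samples here, since no source used here says whether the sexes were processed together. The log2 fold change of Psmd8, males against females, was 0.99 ± 0.10, adjusted p = 1.89e-06, a 1.98-fold level, where 0.69% of all tested genes were higher and 0.268% lower in males. By p-value Psmd8 was number 14 of the 125 genes that passed and number 8 of those outside the X and Y chromosomes. Its adjusted p stayed at 7.46e-05 or below in the 32 other fits, and it missed an added limit of 1 on the log2 fold change. Among the 39 genes, 3 had an unadjusted p under 0.05, namely Psmd8, Psmb2 (0.22 ± 0.072, adjusted p = 0.135) and Psme4 (0.33 ± 0.13, adjusted p = 0.219), beside 13.2% of all tested genes. Psmd8 lies at chr7:29174188-29180701 on the minus strand of GRCm38, and of the 7 tested genes within 100000 bases of it (Ryr1, Rasgrp4, Fam98c, Spred3, Kcnk6, Yif1b and Spint2) none differed between vehicle-treated males and females. Spred3, the nearest of them, had a log2 fold change of 0.74 (adjusted p = 0.264).

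Between corticosterone-treated males and females, 13 of the 39 genes were higher in males and 2 were lower, where 9.31% of all tested genes were higher and 14% lower. Of the 13, 10 belonged to the 17 genes of the base and lid (Psmc1, Psmc3, Psmc5, Psmd1, Psmd2, Psmd4, Psmd3, Psmd7, Psmd8 and Psmd12), and 1 to the 14 genes of the core (Psma7). The others were Psme3 (0.23 ± 0.061, adjusted p = 0.00552), which overlapped between the sexes, and Psme4 (0.68 ± 0.14, adjusted p = 0.000802), which did not. The largest differences were those of Psmd8 (1.06 ± 0.11, adjusted p = 1.82e-06), Psmd4 (0.70 ± 0.11, adjusted p = 0.00016) and Psmd2 (0.64 ± 0.10, adjusted p = 0.000138), and none of these overlapped between the sexes. The 2 lower genes were Psme2 (-0.56 ± 0.12, adjusted p = 0.00139), without overlap, and Psme1 (-0.33 ± 0.093, adjusted p = 0.00844), with an overlap.

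Among the smaller differences, Psmd7, the lid partner of Psmd14, was at 124 to 157 CPM (median 137), 112, 140.1, 103, 122 and 100.2 CPM, 142 to 155 CPM (median 143) and 134 to 202 CPM (median 161) over the 4 groups, with F4 above the lowest treated male (0.50 ± 0.10, adjusted p = 0.000981). The ATPase Psmc1 was at 123 to 150.0 CPM (median 135), 129, 134, 118, 135 and 107 CPM, 128 to 148 CPM (median 139) and 139 to 181 CPM (median 153), with treated males all above treated females (0.32 ± 0.078, adjusted p = 0.00281). Psmc3, another ATPase, was at 168 to 236 CPM (median 194), 171, 178, 132, 189.9 and 136 CPM, 191 to 224 CPM (median 212) and 196 to 257 CPM (median 211), again without overlap (0.42 ± 0.10, adjusted p = 0.00352). These 3 genes passed in neither sex with corticosterone, with fold changes above 0 in males and below 0 in females. The interaction did not pass for any of them. The lid gene Psmd3 was at 101 to 127 CPM (median 108), 95.5, 108, 95.97, 110.1 and 85.96 CPM, 107 to 124 CPM (median 112) and 115 to 151 CPM (median 119) (0.32 ± 0.083, adjusted p = 0.00506). Psmd12 was at 93.04 to 116 CPM (median 108), 90.4, 114, 85.5, 111 and 86.9 CPM, 109 to 118 CPM (median 114) and 109 to 129 CPM (median 121) (0.29 ± 0.081, adjusted p = 0.00742). Psmd1, the scaffold subunit Rpn2, was at 122 to 185 CPM (median 151), 117, 154, 111, 121 and 95.6 CPM, 139 to 175 CPM (median 152) and 144 to 202 CPM (median 153) (0.41 ± 0.12, adjusted p = 0.00989). Of these, Psmd3 did not overlap between treated males and females, and Psmd12 and Psmd1 did.

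The count of 13 rested in part on single mice. It was 8 without F6, F10 or M8, 6 without F10 and M8 together, 6 with the adipocyte marker score as a covariate and 5 with the treated groups fitted alone. Psma7, Psmd2, Psmd4, Psmd8 and Psme4 passed in each of 32 other fits, and Psmd8 alone of them exceeded an added limit of 1 on the log2 fold change. By contrast, Psmd1 was lost in 24 of the 32 fits, Psmd12 in 12 and Psme3 in 11. Of the 2 lower genes, Psme1 was lost in 19 of the 32 fits and Psme2 in 1.

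**Figure D4:**
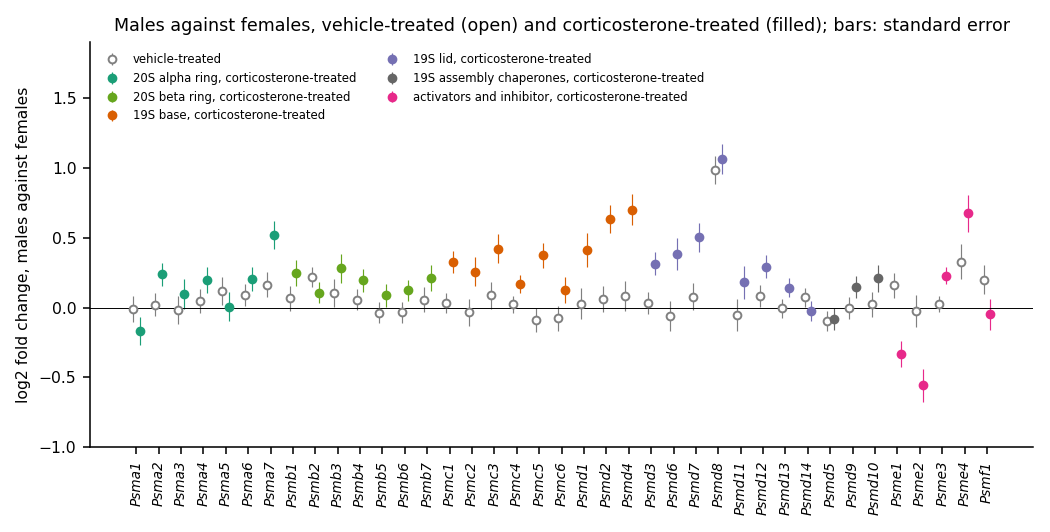
Points show the log2 fold change of males against females for each of the 39 genes, open gray for vehicle-treated and filled, colored by subcomplex, for corticosterone-treated mice, with bars of 1 SE in each direction. Open points other than that of Psmd8 (0.99) lie at 0.33 or below, and the filled points of the 19S base and lid lie mostly above those of the 20S core.

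Because the fold changes of the cap and the core pointed apart in males, their balance was also followed mouse by mouse as the mean log2 CPM of the 19S base minus that of the 20S core. It was 0.30 to 0.50 (median 0.38) in vehicle-treated females, and 0.53, 0.52, 0.54, 0.36 and 0.32 in treated females. It was 0.22 to 0.43 (median 0.37) in vehicle-treated males and 0.53 to 0.83 (median 0.65) in treated males. Treated males lay above all vehicle-treated mice, and the lowest of them, M6, lay just below F6. For the lid without Psmd8 the same difference was -0.11 to 0.040 (median -0.052) in vehicle-treated females, and 0.027, 0.12, 0.13, -0.046 and -0.050 in treated females. It was -0.20 to 0.014 (median -0.054) in vehicle-treated males and 0.039 to 0.23 (median 0.12) in treated males. The treated and vehicle-treated males did not overlap in either measure, and the treated females overlapped the vehicle-treated females in both. For the base, F2, F4 and F6 lay above every vehicle-treated female, and the overlap came from F8 and F10. M8, with hepatocyte transcripts, had the highest value of both measures. For the base, the lowest values of each group were those of F3 and F5, F8 and F10, M3 and M5, and M6 and M10. These were mice with high slow fiber markers, as was F2, which stood at 0.53. The part of slow fibers in this balance was not tested. These sums were given no test, since the genes were chosen with results of these data known. The sums also include genes called in males: Psmc5, Psmd2 and Psmd4, which rose, in the base, and Psma5 and Psmb2, which fell, in the core. The separation of the male groups thus restates those calls in part and is not separate support for them.

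**Figure D5:**
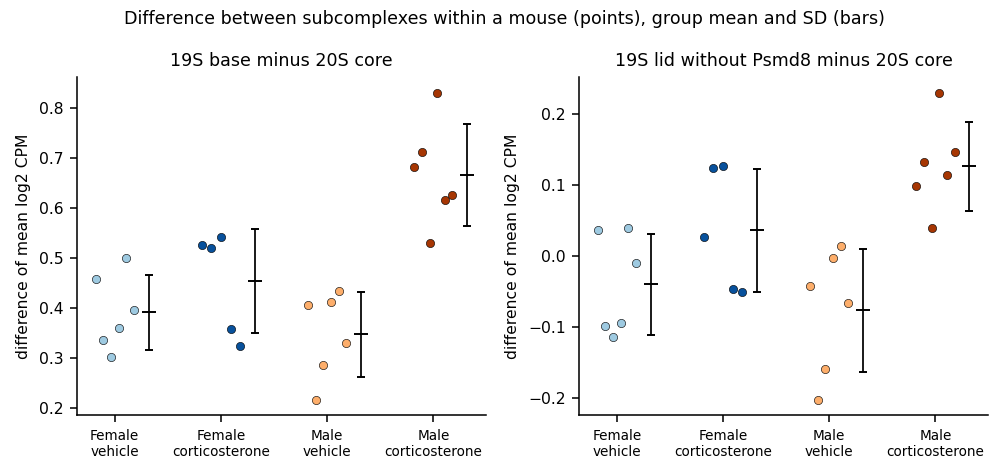
Each point is 1 mouse, plotted as the mean log2 CPM of the 19S base (left) or of the 19S lid without Psmd8 (right) minus the mean log2 CPM of the 20S core, with the mean and SD of each of the 4 groups as bars. Treated males lie at 0.53 to 0.83 on the left and at 0.039 to 0.23 on the right, above the vehicle-treated males in both.

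Promoter sequences are shown for 4 genes that stand for different responses: Psmd8, which rose in both sexes and was higher in males; Psmd4, which rose most in males; Psma5, which fell in both; and the catalytic subunit Psmb5, which passed in neither. The stretches are the exon-free part of the RefSeq window of GRCm38.p6 that begins 250 bases before the start of the gene, written on the strand of the gene, with matches to the motifs searched in capitals.
Psmd8, chr7:29180702-29180923, minus strand: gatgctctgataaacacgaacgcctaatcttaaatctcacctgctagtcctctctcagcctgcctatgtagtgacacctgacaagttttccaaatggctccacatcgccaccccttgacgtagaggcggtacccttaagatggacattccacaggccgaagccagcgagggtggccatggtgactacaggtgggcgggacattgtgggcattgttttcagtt
Psmd4, chr3:95042615-95042864, minus strand: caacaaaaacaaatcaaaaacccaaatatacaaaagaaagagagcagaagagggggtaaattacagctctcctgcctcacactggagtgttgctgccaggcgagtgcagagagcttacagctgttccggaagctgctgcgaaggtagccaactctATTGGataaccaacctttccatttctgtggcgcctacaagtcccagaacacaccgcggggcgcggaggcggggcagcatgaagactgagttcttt
Psma5, chr3:108256676-108256877, plus strand: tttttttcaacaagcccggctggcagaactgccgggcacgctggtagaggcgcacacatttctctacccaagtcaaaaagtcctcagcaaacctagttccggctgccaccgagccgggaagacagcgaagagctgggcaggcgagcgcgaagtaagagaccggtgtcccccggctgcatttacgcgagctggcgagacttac
Psmb5, chr14:54618023-54618245, minus strand: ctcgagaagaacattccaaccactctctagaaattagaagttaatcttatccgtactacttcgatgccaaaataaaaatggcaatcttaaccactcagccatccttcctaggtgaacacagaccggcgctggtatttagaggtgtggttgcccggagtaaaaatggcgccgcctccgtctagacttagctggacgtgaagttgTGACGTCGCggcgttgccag

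A window was at hand for 33 of the 39 genes, and none for Psmb1, Psmb2, Psmb7, Psmc3, Psmd3 and Psmd7. Both strands of the whole window, from 250 bases before to 50 after the start, were searched for the core of the antioxidant response element, which Nrf factors bind (TGACNNNGC), the core of the glucocorticoid response element (ACANNNTGT) and the CCAAT box. The first was found in 6 of 33 windows (18.2%), those of Psmb5, Psmb6, Psmc6, Psmd9, Psmd12 and Psme4, beside 12.4% of all 32851 windows. The glucocorticoid response element core was found in 0 of 33 windows, beside 6.85% of all windows. These shares were given no test, and sequence outside the windows was not searched. The CCAAT box was in 12 of 33 windows (36.4%), beside 37.4% of all, and in 5 of the 7 windows of the alpha ring. Psmd4 held 3 of these boxes, 1 of them in the stretch shown (read as ATTGG, on the other strand), and Psmb5 held 1 match to the antioxidant response element core in its stretch, whereas the stretches of Psmd8 and Psma5 held no match to any of the motifs.

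Around the proteasome, the genes of its alternative subunits fell in males and its regulators moved in both directions. Of 47 genes listed for the pathway, 46 were matched and 43 tested, of which 8 rose and 6 fell in males, where 13.2% of all tested genes rose and 13.1% fell. In females 1 rose and 5 fell, beside 7.4% and 6% of all tested genes. The immunoproteasome subunits Psmb8, Psmb9 and Psmb10, which replace the catalytic subunits of the core in immune cells and under interferon, all fell in males. Psmb10 was at 10.7 to 13.9 CPM (median 12.6) in vehicle-treated and 6.93 to 9.01 CPM (median 7.57) in treated males, with no overlap (-0.71 ± 0.11, adjusted p = 3.2e-05). It was at 10.7 to 17.2 CPM (median 15.7) and 11.7, 14.2, 13.2, 10.9 and 13.4 CPM in females (-0.24 ± 0.11, adjusted p = 0.124). Psmb8 was at 5.73 to 11.9 CPM (median 6.24) and 2.85 to 5.47 CPM (median 3.73) in males, with no overlap (-0.93 ± 0.27, adjusted p = 0.00831). It was at 5.42 to 12.9 CPM (median 6.92) and 8.59, 11.1, 10.5, 4.18 and 10.1 CPM in females (0.075 ± 0.27, adjusted p = 0.867). Psmb9 was at 2.73 to 8.03 CPM (median 4.56) and 1.49 to 3.06 CPM (median 2.19) in males, overlapping (-1.08 ± 0.28, adjusted p = 0.00398). It was at 3.51 to 6.82 CPM (median 4.83) and 4.87, 5.54, 7.39, 2.90 and 7.83 CPM in females (0.17 ± 0.28, adjusted p = 0.694). The difference between the sexes did not pass for any of the 3 (adjusted p = 0.0776, 0.0416 and 0.0492). PA28 alpha and beta, which fell in males too, are interferon-induced partners of these subunits.

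Other cell types moved beside these falls. The summed level of 5 fibroblast markers was 606 to 1102 CPM in vehicle-treated and 315 to 484 CPM in treated males. In females it was 560 to 1100.2 CPM with vehicle and 489.5 to 891 CPM with treatment, and 3 of the 5 fell in males and 1 in females. The 7 macrophage markers summed to 40.1 to 155 CPM in vehicle-treated and 62.6 to 91.7 CPM in treated males, and to 62.6 to 133 CPM and 78.4 to 249 CPM in females. None of the 7 passed with treatment in either sex, and 5 were lower in treated males than in treated females. The 7 lymphocyte markers summed to 3.28 CPM at most in any mouse, and Cd8a was at 0 in treated males. The part of these cells in the falls of Psme1, Psme2 and the immunoproteasome genes was not tested. Erythrocyte markers rose with treatment (4 of 5 in each sex), whereas 0 of 5 endothelial and 0 of 5 Schwann cell markers and 0 of 7 slow fiber markers passed in either sex. Of 6 markers of muscle stem and regenerating cells, 1 rose in males and 1 fell in females, and of 8 fiber markers, 1 rose and 1 fell in males and 1 fell in females.

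Among the 8 listed transcriptional regulators of proteasome genes, Foxo3 rose in both sexes and by more in males. Foxo3, a forkhead factor of muscle atrophy, was at 22.1 to 26.3 CPM (median 25.04) in vehicle-treated and 56.6 to 87.99 CPM (median 72.3) in treated males, without overlap (1.54 ± 0.12, adjusted p = 2.09e-08). It was at 31.1 to 48.5 CPM (median 35.2) and 62.6, 49.8, 64.3, 48.2 and 42.9 CPM in females (0.52 ± 0.13, adjusted p = 0.00432). The interaction passed (1.02 ± 0.18, adjusted p = 0.00607), and between vehicle-treated mice Foxo3 was lower in males (-0.58 ± 0.12, adjusted p = 0.00919). Nfe2l2 (Nrf2), which binds antioxidant response elements, rose in males from 35.04 to 47.8 CPM (median 40.2) to 59.5 to 101 CPM (median 70.6), without overlap (0.89 ± 0.14, adjusted p = 2.94e-05). It was at 37.3 to 58.3 CPM (median 46.7) and 60.6, 73.3, 61.4, 43.6 and 46.4 CPM in females (0.27 ± 0.14, adjusted p = 0.155). Its repressor Keap1 rose in males as well (0.37 ± 0.083, adjusted p = 0.00122). The interaction did not pass for Nfe2l2 or Keap1. Nfe2l1 (Nrf1), the factor of the bounce-back response to proteasome inhibition, passed in neither sex (0.19 in males and 0.11 in females). Fbxw7, an F-box protein that marks Nrf1 for degradation, fell in both (-0.66 ± 0.14, adjusted p = 0.000612 in males and -0.87 ± 0.14, adjusted p = 0.000221 in females).

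Upstream of the proteasome, 4 of 8 genes for ubiquitin and its activation rose in males, beside 13.2% of all tested genes, and 0 of 8 passed in females. The interaction passed for 0 of these 8. They were Ubb, a ubiquitin precursor (0.42 ± 0.10, adjusted p = 0.00132), Ube2b, a ubiquitin-conjugating enzyme (0.40 ± 0.11, adjusted p = 0.00502), Uba1, the main activating enzyme (0.30 ± 0.064, adjusted p = 0.000885), and Ube2d3, another conjugating enzyme (0.29 ± 0.083, adjusted p = 0.00812). Ufd1, a cofactor of the segregase, fell in males (-0.26 ± 0.057, adjusted p = 0.00101). Ubqln4 (-0.50 ± 0.10, adjusted p = 0.000987) and the segregase ATPase Vcp (-0.41 ± 0.10, adjusted p = 0.00411) fell in females. Of 8 enzymes and regulators bound to the proteasome, Zfand2a fell in males (-0.34 ± 0.10, adjusted p = 0.0091). The ligase Ube3c (-0.49 ± 0.093, adjusted p = 0.000787) and the adaptor Ecpas (-0.61 ± 0.13, adjusted p = 0.00225) fell in females. The interaction did not pass for Ufd1, Ubqln4, Vcp, Zfand2a, Ube3c or Ecpas, so a call in 1 sex is not a difference between the sexes. None of the 6 assembly factors tested passed in either sex. The pathway lists were written with results of these data known.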

How the data were processed

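Quadriceps RNA of 23 mice was sequenced in read pairs by strand. Per the study's methods, the authors aligned reads to mm10 with STAR 2.7.3a, counted read pairs that fell on 1 gene with HTSeq 0.12.4 and Ensembl release 97, and deposited these counts without normalization. The deposited table also holds 5 summary entries (10.7% to 15.3% of read pairs per mouse), which were left out. Names and positions came from GENCODE M21 (GRCm38), promoter windows from RefSeq.

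Groups followed the labels for sex and treatment. A gene was tested if, in 1 group or more, 4 mice or more had over 20 counts scaled by the median of ratios, which left 13049 genes. They were tested in R 4.3.3 with edgeR 4.0.16 (TMM normalization, quasi-likelihood test, 1 mean for each of the 4 groups). Adjustment was by Benjamini and Hochberg's method over all tested genes, with a threshold of 0.01. CPM and RPKM use the TMM library sizes. The log2 CPM values shown were taken without a prior count. A prior count of 1 entered only the adipocyte marker score and the correlations between same-numbered mice. The scripts were tested on simulated data. All replicate pairs differed beyond sampling noise (chi-square per degree of freedom of 14.4 or more). Each of the 39 genes had at least 210 counts in every mouse. The spread between mice exceeded counting error (the square root of the mean count) in all but 2 of 156 sets of 1 gene in 1 group, those of Psmd9 in vehicle-treated and Psmf1 in treated males.

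The alternatives tried were the filter filterByExpr of edgeR (15045 genes), all genes with a count (31922), scaling by the median of ratios, DESeq2 1.42.0, limma-voom 3.58.1 with quality weights, the 2 groups of a comparison alone, an added limit of 1 on the log2 fold change, an adjusted p threshold of 0.05, a replicate block, and each mouse left out. Leaving out F10 and M8 together and the adipocyte marker score as a covariate were chosen after seeing the data. The 39 genes and all lists were chosen with earlier results of these data known. The text gives values for the genes that passed in at least 1 comparison, the highest and lowest per kilobase and the 3 catalytic subunits, and names pathway genes that passed with treatment or in the interaction, except 1 that is not reported here. Psmd10 and Nfe2l1 and the other genes named at the ends of ranges were added after their values were seen. Of the 39 genes, 8 overlap another gene on the same strand, where shared bases were not counted.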

Additional observations from a re-analysis of the deposited data

Results flagged for a closer look

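Of 156 sets of values of 1 gene in 1 group, 10 held a mouse that stood far from the rest of its group by Dixon's test, where chance alone gives about 1 in 20. In corticosterone-treated males M8 stood above the other 5 mice for Psmb3 (152 CPM), Psmc3 (257 CPM), Psmc4 (89.3 CPM), Psmd1 (202 CPM) and Psmd3 (151 CPM), and M12 stood below them for Psmc2 (114 CPM). M8 and M12 are 2 of the mice with over 1000 CPM of summed hepatocyte markers (2478 and 1460 CPM), and the part of these transcripts in the values was not tested. In corticosterone-treated females F10, with 2455 CPM of hepatocyte markers, stood below the others for Psmd4 (115 CPM). Among vehicle-treated mice, M11 stood below the other males for Psmd6 (122 CPM), M1 above them for Psmf1 (26.9 CPM), and F5 above the other females for Psme2 (47.8 CPM).

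For 3 genes every corticosterone-treated male lay above the mean of the vehicle-treated males and every corticosterone-treated female below the mean of the vehicle-treated females. The share of all tested genes that meet this rule is not given here, so the count has no background beside it. The male minus female log2 fold change was 0.58 for Psmd2, 0.29 for Psmc1 and 0.28 for Psmd3. In edgeR's test of the interaction these differences did not pass (adjusted p = 0.0169, 0.0708 and 0.0939).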

How the results depend on the processing

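No called gene changed direction. The median log2 fold change of the 39 genes in males, near 0, lay between -0.061 and 0.0030 over all settings, the latter without M12. Of 1008 values of the 32 gene and comparison pairs that passed, each under another fit, 871 still passed and 137 did not. The numbers of proteasome genes called depended on the setting as follows. Fitting the 2 groups of a comparison alone gave 0 higher and 0 lower in females and 5 higher and 1 lower in treated males against treated females. DESeq2 gave 13 lower in females and 3 higher and 1 lower for the interaction, and limma-voom gave 9 lower in females, 1 higher for the interaction and 1 lower in treated males against females. With the adipocyte marker score, 1 was lower in females, and 6 were higher and 0 lower in treated males against females. An adjusted p threshold of 0.05 gave 17 lower in females and 3 higher and 2 lower for the interaction. A limit of 1 on the log2 fold change left 0 higher and 0 lower in males, 0 and 0 in females, 0 between vehicle-treated males and females, and 1 higher and 0 lower between treated ones. Without a filter beyond 1 count 3 were higher in males and 1 was lower in treated males against females, and the latter count was 1 also with filterByExpr and with the median of ratios. Without F10 and M8 together, 4 were higher and 5 lower in males, 1 higher and 4 lower in females, and 6 higher and 1 lower in treated males against females.

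Leaving out each mouse in turn gave 3 to 6 genes higher (3 without M4 or M11) and 4 to 6 lower in males, 1 higher and 3 to 10 lower in females (3 without F2, 10 without F3 or F8), 0 to 1 higher and 0 lower for the interaction (1, Psmd2, without F3 or F8), 1 higher and 0 lower between vehicle-treated males and females, and 8 to 15 higher (8 without F6, F10 or M8, 15 without F8) and 1 to 2 lower between treated ones. The replicate numbers are shared by males and females only. Over the 11 same-numbered pairs, deviations correlated at 0.0846 to 0.477 for odd numbers (vehicle-treated) and at -0.377 to 0.242 for even numbers (treated). Differently numbered pairs were not compared, so whether the numbers mark mice handled together was not tested. With a replicate block the interaction gave 0 higher and 0 lower, the vehicle-treated sexes 1 and 0, and the treated sexes 11 and 2. Counting error reached at most 6.50% of a group mean per mouse, beside a median spread between mice of 9.66%.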
